A study of Mus musculus with 4 samples.

Results

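Id1, Id2 and Id3 encode inhibitors of DNA binding, small helix-loop-helix proteins without the basic stretch that contacts DNA. These 3 genes, of the 27998 in the files, were described across the progenitor types of mouse LSK cells and between Nup358 knockout and control mice. They were taken by their symbols, and the family was chosen on measured values of these same libraries, since Id1 had been seen to be higher in Nup358 knockout cells with high Elane. The contrast of the genotypes within those cells, and any contrast of Id1 from a fit that includes them, is therefore given as a description without a test. Tests are given for cells outside that gate and, between cell types, for genes other than Id1. LSK cells are the lineage-negative, Sca1+ and cKit+ cells of the bone marrow, which hold the stem cells and the multipotent progenitors. Nup358, which the files list as Ranbp2, is a large protein of the nuclear pore. The control genotype was Nup358 fl/fl, called wild-type in the labels, and the knockout genotype was Nup358 fl/fl with CreERT2 in addition. Both groups were adult mice treated with tamoxifen. The Cre was expressed from the R26 locus in all tissues, so that the deletion was not restricted to blood cells. There were 2 libraries per genotype, each pooled from 3 bone marrows, and the p-values measure the spread between these pools.

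Id proteins pair with the E proteins Tcf3 (E2A), Tcf4 (E2-2) and Tcf12 (HEB) and keep them off DNA. E proteins drive lymphoid and plasmacytoid dendritic cell fates. Id1 is known as an immediate target of BMP signalling through SMAD proteins and is also raised by growth factors and cytokines in stem and myeloid progenitor cells. Id2 is needed for innate lymphoid cells and conventional dendritic cells, and Id3 acts in B and T cell development beside Id2.

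On the genome build GRCm38, Id1 lies at chr2:152736251-152737410 on the plus strand, Id2 at chr12:25093799-25097140 on the minus strand and Id3 at chr4:136143497-136145755 on the plus strand. No other annotated gene overlaps any of them. The stretch of 120 coding bases that is most alike in the 3 genes is shown because it covers part of the helix-loop-helix, the surface that all members share. Capitals mark the bases that all 3 members have in common, and each run is read 5′ to 3′ on the coding strand, within the first exon, from GENCODE transcripts. It lies at chr2:152736518-152736637 in Id1, at chr12:25095783-25095902 in Id2 and at chr4:136144002-136144121 in Id3.
Id1: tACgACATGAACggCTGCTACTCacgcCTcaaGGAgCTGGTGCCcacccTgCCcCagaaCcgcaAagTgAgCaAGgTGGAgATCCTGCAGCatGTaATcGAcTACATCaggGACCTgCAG
Id2: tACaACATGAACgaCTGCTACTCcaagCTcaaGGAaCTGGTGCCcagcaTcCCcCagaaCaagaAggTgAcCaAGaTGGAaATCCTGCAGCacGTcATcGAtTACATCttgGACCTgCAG
Id3: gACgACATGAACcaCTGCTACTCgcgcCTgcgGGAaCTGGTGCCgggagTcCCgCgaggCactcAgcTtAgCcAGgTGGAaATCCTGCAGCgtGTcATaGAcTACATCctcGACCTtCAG
Of these 120 bases, 77 (64.2%) are identical in all members. Id1 and Id2 share 98 bases (81.7%), whereas Id3 shares 85 (70.8%) with Id1 and 86 (71.7%) with Id2. Over whole transcripts the longest identical run between any pair of members is 19 bases, for Id2 and Id3.

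RNA was counted by its 3′ end in droplets, with a unique molecular identifier (UMI) per captured molecule. Of the barcode sequences, 6680 were found in several libraries at once, which bears on every value below. A barcode was treated as a copy if another library held the same sequence with a UMI total 3-fold or more higher. Copies made up between 14.8% and 81.8% of the deposited barcodes of a library, with the highest shares in control library 2 (81.8%) and knockout library 1 (65.3%). Leaving them out kept 14041 of 25242 barcodes, namely 7830 and 1200 control and 1589 and 3422 knockout cells, with 18846887 to 59033602 UMIs per library. Control library 1 stood apart from the other libraries, with a median of 2387 genes per cell against 3600.5 to 4254. Ranbp2 stood at 101 to 127 CPM, the count per 1000000 UMIs, in the 4 libraries, but 3′ counts do not read the deleted exon, so they do not check the genotype. The sort markers were present in every library, with Kit at 73.3 to 103 CPM and Ly6a, which encodes Sca1, at 133 to 317 CPM.

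Cells were assigned to types by gates on marker genes, none of which is an Id gene. A cell went to the first gate it passed. The Elane-high gate took cells with at least 5 Elane UMIs per 10000, which are progenitors on the neutrophil path. Mpo-high cells are myeloid-primed cells below that Elane level, Dntt-high cells are lymphoid-primed, Procr-high cells carry stem cell genes and Car1-high cells erythroid genes. Cells that passed no gate, 5025 in all, are called ungated. These 6 groups had at least 20 cells in every library. In each of them all the check genes, which the gates did not use, were higher in pooled counts than in ungated cells, such as Prtn3 and Cebpe for Elane-high and Flt3 and Il7r for Dntt-high cells. The gates are not clusters, and 6371 cells passed exactly 1 of them.

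Id1 was the most abundant member. Over all cells used it had 7601 UMIs (46.2 CPM), against 1892 for Id2 (11.5 CPM) and 2075 for Id3 (12.6 CPM). At least 1 Id1 UMI was found in 14.0%, 19.7%, 36.7% and 36.4% of the cells of control libraries 1 and 2 and knockout libraries 1 and 2. The fourth member of the family, Id4, had only 6 UMIs in 14041 cells.

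Id2 and Id3 differed between the gates. In a fit over the 6 groups with the library as a block, edgeR gave adjusted p-values of 6.2e-08 for Id2 and 4.2e-07 for Id3, where 69.9% of the 11543 genes tested passed. No such test is given for Id1, since the Elane-high knockout cells are among the 6 groups. The 3 members had different profiles over the gates, as the plot of their levels shows.

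**Figure D1:**
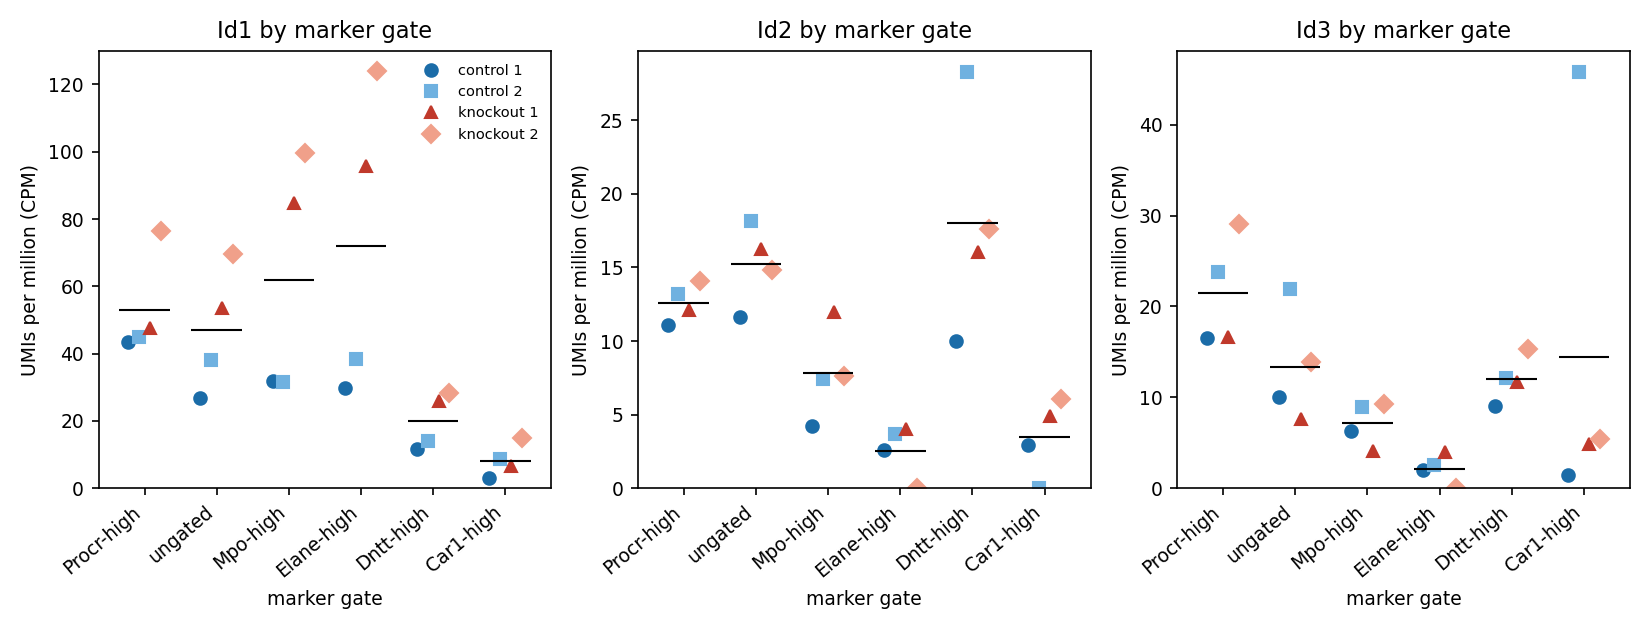
CPM of Id1, Id2 and Id3 (vertical axes, starting at 0) in the 6 gates with at least 20 cells in every library. Each point is a library and the black line is the mean of the 4 libraries. Id1 is lowest in Dntt-high and Car1-high cells, while Id2 and Id3 are low in Elane-high cells.

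Id1 was lower in the lymphoid-primed and erythroid cells than in the stem-like and myeloid ones. In Procr-high cells it stood at 43.4 and 44.8 CPM in controls and at 47.6 and 76.3 CPM in knockouts. In Mpo-high cells it was at 31.9 and 31.6 CPM in controls and at 84.8 and 99.5 CPM in knockouts. In Dntt-high cells it was at 11.6 and 14.0 CPM in controls and at 25.8 and 28.4 CPM in knockouts. The lymphoid-primed cells thus held less Id1 than the myeloid-primed cells in 4 of 4 libraries, with a log2 fold change of -1.71. No p-value is given for it, since the fit over the 6 groups also held the Elane-high cells. Of the other members, Id2 passed this comparison and Id3 did not, while 23.2% of all genes passed. The lowest Id1 level of the 6 groups was in Car1-high cells, at 2.9 and 8.6 CPM in controls and at 6.6 and 14.9 CPM in knockouts. Gates with fewer than 20 cells in some library were not ranked. Of these, Cd79a-high cells, which carry B lineage genes, had 12.6 and 10.3 CPM of Id1 in the knockouts. Mcpt8-high cells, which carry basophil and mast cell genes, had 66.2 and 102 CPM there, from only 8 and 22 cells. The order of the rest of the 6 groups depended on the genotype. In controls Id1 was highest in Procr-high cells (44.1 ± 1.0 CPM, SD, n = 2), followed by Elane-high (34.1 ± 6.0), ungated (32.4 ± 8.0) and Mpo-high cells (31.7 ± 0.18), of which the last 3 lay within the spread between libraries. In knockouts Elane-high (110 ± 19.9) and Mpo-high cells (92.2 ± 10.4) came before Procr-high (62.0 ± 20.3) and ungated cells (61.6 ± 11.3). Dntt-high lay below ungated and Car1-high below Dntt-high in 4 of 4 libraries. Over all 4 libraries the means ran from 72.0 ± 45.4 CPM in Elane-high cells (SD, n = 4) to 8.2 ± 5.0 CPM in Car1-high cells, and the SDs of the upper groups hold the difference between the genotypes. Between Procr-high and ungated cells the log2 difference of Id1 was 0.14, from the same fit and likewise without a test. Elane-high cells were above Mpo-high cells of the same library in 3 of 4 libraries.

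Id2 ran the other way along the lymphoid branch. In Dntt-high cells it was at 10.0 and 28.3 CPM in controls and at 16.1 and 17.6 CPM in knockouts. In Mpo-high cells it was at 4.2 and 7.4 CPM in controls and at 12.0 and 7.6 CPM in knockouts. Dntt-high cells held more Id2 in 4 of 4 libraries, with a log2 fold change of 1.18 (SE 0.20, edgeR adjusted p = 8.7e-05). It was lower still in Elane-high cells, at 2.6 and 3.7 CPM in controls and at 4.0 and 0 CPM in knockouts, a log2 fold change of -1.05 from Mpo-high cells (SE 0.27, edgeR adjusted p = 0.00566). The value of 0 came from 451747 UMIs, in which 3 UMIs would be 6.6 CPM. The levels of the other libraries lie below this floor, so the 0 does not show a lower level. Id2 and Id3 both passed this comparison, and 26.6% of all genes did. Procr-high cells had 11.1 and 13.2 CPM of Id2 in controls and 12.1 and 14.1 CPM in knockouts, close to ungated cells at 11.6 and 18.2 CPM and at 16.3 and 14.8 CPM. That log2 difference of -0.30 did not pass the test (SE 0.16, edgeR adjusted p = 0.179).

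Some high Id2 values came from gates with few cells. Csf1r-high cells were taken by Csf1r, Ly86 and Ccr2, genes of monocytes and dendritic cells. Of their 4 check genes 3 were higher than in ungated cells in pooled counts but only 1, Ctss, in every library, and 229 of the 363 cells lay within 1.5-fold of the threshold. The controls had 332 and 4 such cells and the knockouts 24 and 3. Id2 was at 14.5 CPM in control library 1, which held most of these cells, and at 68.7 CPM in knockout library 1. The other libraries gave 283 and 320 CPM from 11 and 5 UMIs. In knockout library 1, 1 cell held 25 of the 32 Id2 UMIs of this gate. Siglech-high cells, which carry markers of plasmacytoid dendritic cells, had 35.5 and 18.9 CPM of Id2 in the knockout libraries, from 6 UMIs in each. Only 7 control cells passed that gate, with 0 Id2 UMIs, and 3 UMIs would be 131 and 157 CPM in the 2 control libraries. The contrast between these dendritic and monocyte gates is therefore given as values only, since neither gate had 20 cells in every library. Mcpt8-high cells, which carry basophil and mast cell genes, had 16 and 10 Id2 UMIs in the knockout libraries (70.6 and 28.4 CPM) and none in the 16 control cells.

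Id3 was highest in cells with B lineage genes. Cd79a-high cells had 108 and 66.3 CPM of Id3 in the controls, from only 15 and 8 cells with 4 and 3 UMIs. The knockout libraries had 67.5 and 122 CPM, from 116 and 328 cells with 43 and 318 UMIs. Most of the cells of this gate came from the knockout libraries, so no comparison of genotypes was made in it. Among the groups with enough cells, Procr-high cells held the most Id3, at 16.5 and 23.8 CPM in controls and at 16.7 and 29.0 CPM in knockouts. Ungated cells had 10.1 and 22.0 CPM in controls and 7.6 and 13.8 CPM in knockouts. Id3 was higher in Procr-high cells in 4 of 4 libraries, with a log2 fold change of 0.74 (SE 0.19, edgeR adjusted p = 0.00625). Id2 did not pass this comparison, which 23.2% of all genes passed. The call of Id3 was lost with DESeq2 (adjusted p = 0.186). In edgeR it was also lost without knockout library 1 (adjusted p = 0.0598) or without knockout library 2 (0.102). In Elane-high cells Id3 was at 2.0 and 2.6 CPM in controls and at 4.0 and 0 CPM in knockouts, a log2 fold change of -1.51 from Mpo-high cells (SE 0.36, edgeR adjusted p = 0.00308), whose call was lost without control library 1 (-1.66, edgeR adjusted p = 0.104). Between Dntt-high and Mpo-high cells the log2 difference of Id3 was 0.61 (SE 0.27, edgeR adjusted p = 0.115), and Id3 was higher in Dntt-high cells in 4 of 4 libraries. The Car1-high value of 45.8 CPM in control library 2 rested on 1 cell that held 13 of its 16 Id3 UMIs, and the other libraries had 1.5, 4.9 and 5.4 CPM there.

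The E proteins that Id proteins bind were measured in the same cells. Tcf4 was higher in Dntt-high than in Mpo-high cells by a log2 fold of 0.92 (edgeR adjusted p = 5.6e-09), as was Id2, and lower in Elane-high than in Mpo-high cells, also as Id2 (log2 fold change -0.60, edgeR adjusted p = 5.8e-05). For Tcf3 the log2 differences were 0.09 and -0.11 and for Tcf12 0.16 and -0.23, and none of these 4 passed the test. Tcf12 was higher in Procr-high than in ungated cells by a log2 fold of 0.22 (edgeR adjusted p = 0.0324). A list of 8 genes held the E proteins and other bHLH genes, among them Myc, Max and Hes1, which are not all E protein partners. Of these 8 genes, 3 passed as higher and 2 as lower in Dntt-high than in Mpo-high cells, where 23.2% of all genes passed. Besides Tcf4 these were Hes1, a Notch target (log2 fold change 2.12), and Lyl1 (0.24) on the higher side, and Tal1 (-0.63) and Myc (-0.42) on the lower side. Of 10 genes that E proteins activate in lymphoid cells, 7 were tested and 4 passed as higher in Dntt-high cells. Over all genes the same 23.2% passed in either direction. Among these, Dntt defined the gate and Il7r checked it, and the others were Notch1 (1.35) and Rag2 (4.04). In Mpo-high cells Rag2 was at 0.39 and 0.39 CPM in controls and at 0.62 and 0.18 CPM in knockouts. There 3 UMIs would be 0.20 to 1.2 CPM, so the fold change of Rag2 rests on few UMIs. The median of the 7 genes was 1.35, against -0.01 over all genes.

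Receptors and SMADs of the BMP and TGF-beta pathways were measured as well. Of 22 listed genes 20 were tested, and 10 passed as lower and 0 as higher in Elane-high than in Mpo-high cells. Over all genes 26.6% passed in either direction, and the list median was -0.40 against -0.01 over all genes. The BMP receptor Bmpr2 (log2 fold change -0.79), the inhibitory SMAD gene Smad7 (-1.08), the SMAD corepressor Skil (-1.08) and the TGF-beta receptor Tgfbr2 (-0.97) had the smallest p-values. In Procr-high against ungated cells 8 of the 20 passed as higher and 1 as lower, Tgfb1 (-0.61), where 23.2% of all genes passed. Bmpr2 (0.52), the coreceptor Eng (0.43) and Smad5 (0.30) led the higher ones. In Dntt-high cells 2 were higher than in Mpo-high cells, Smad7 (1.27) and Smad5 (0.34), and 3 were lower, led by Tgfb1 (-0.47) and the activin receptor Acvr1b (-0.86), so that 5 of 20 passed, close to the 23.2% over all genes.

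Over the 33 sums of a library and a gate with at least 20 cells, the genes most like each member were found by Pearson's r of log2 CPM with 5 added, among 5985 genes with a mean of at least 20 CPM. For Id1 these were Klhl5 (r = 0.81), Guca1a (0.81) and Def8 (0.80). For Id2 they were Rnf114 (0.77), Ppp1r18 (0.76) and Plp2 (0.75), and for Id3 Ppp1cb (0.84), Pcmtd1 (0.79) and Slc38a2 (0.77). Sums from 1 library share its depth and its animals, so that these values only describe likeness. The members were not alike among themselves, with r of 0.09 for Id1 and Id2, -0.25 for Id1 and Id3 and 0.17 for Id2 and Id3. With Tcf3, Tcf4 and Tcf12, in this order, r was -0.50, -0.28 and -0.32 for Id1. For Id2 these values were -0.12, 0.57 and 0.54, and for Id3 they were 0.75, 0.31 and 0.36.

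The next question was whether the Id genes differed between the genotypes. Outside the Elane-high gate Id1 was at 28.4 and 31.6 CPM in controls and at 53.5 and 64.3 CPM in knockouts, from 475 to 3434 UMIs. Id1 rose in knockout cells by a log2 fold of 0.98 (SE 0.16, edgeR adjusted p = 0.0398). Id2 was at 8.1 and 17.6 CPM in controls and at 15.9 and 13.7 CPM in knockouts, and Id3 at 8.9 and 18.4 CPM and at 9.6 and 20.4 CPM. Both groups overlapped in Id2 and in Id3, whose log2 fold changes were 0.23 (SE 0.36, edgeR adjusted p = 0.717) and 0.17 (SE 0.45, edgeR adjusted p = 0.836). Thus 1 of the 3 members passed, where 2.48% of 13549 genes did (119 higher and 217 lower). The Id1 call was lost when all deposited barcodes were kept (log2 fold change 0.81, edgeR adjusted p = 0.0589) or when every barcode found in more than 1 library was left out (1.10, 0.237). It was also lost without knockout library 1 (1.12, 0.0763) or without knockout library 2 (0.84, 0.275), and held without either control library. Id2 passed without control library 2 (0.91, edgeR adjusted p = 0.0113) and was at -0.28 without control library 1.

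Sums over all these cells mix types, whose shares differed between libraries. The Elane-high cells, which these sums leave out, were 20.2% and 10.5% of all control cells and 1.7% and 0.61% of all knockout cells. Of the types within the sums, Mpo-high cells were 24.7% and 12.1% against 11.6% and 7.9%. Cd79a-high cells were 0.19% and 0.67% against 7.3% and 9.6%. They held 4 of 349 and 3 of 276 Id3 UMIs of these sums in controls, and 43 of 308 and 318 of 1089 in knockouts. In such sums a change in the share of a type and a change in RNA within its cells cannot be told apart, so the test was also run within each gate, as the plot of fold changes shows.

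**Figure D2:**
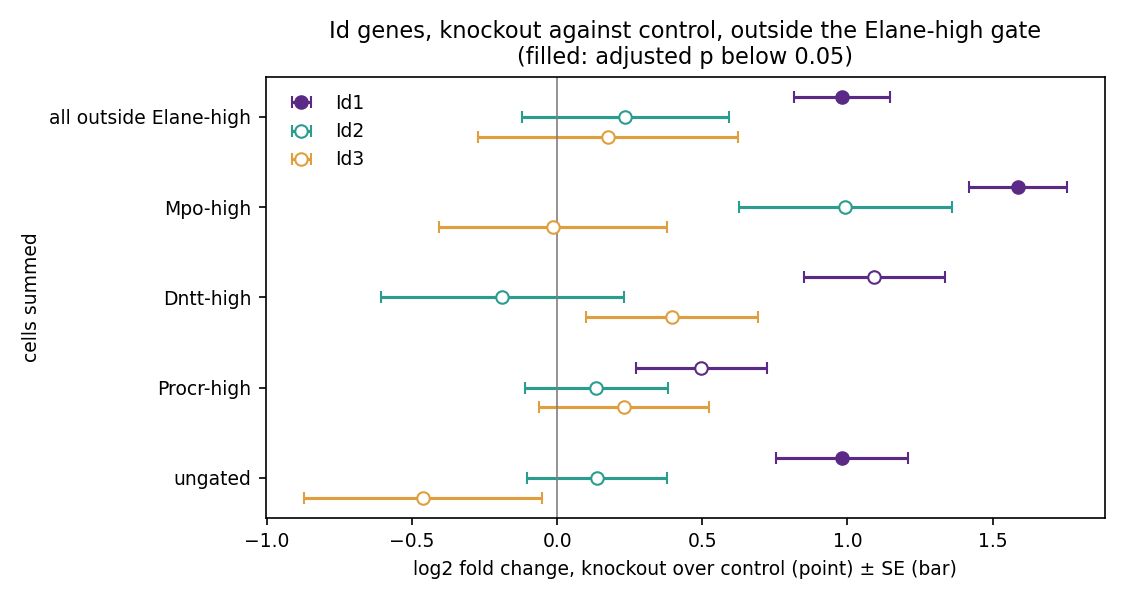
log2 fold change of knockout over control (horizontal axis) for Id1, Id2 and Id3 in all cells outside the Elane-high gate and in 4 gates. Bars are standard errors derived from the F statistic of the edgeR test. Filled points have an edgeR adjusted p below 0.05. Id1 is above 0 in all 5 groups and is filled in 3, at 0.98, 1.59 and 0.98, while no point of Id2 or Id3 is filled.

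The rise of Id1 was best resolved in the myeloid-primed Mpo-high cells. There the controls held 490 and 81 Id1 UMIs and the knockout libraries 411 and 561, which gives the levels of 31.9, 31.6, 84.8 and 99.5 CPM listed above. The controls differed by less than 1 CPM. The log2 fold change was 1.59 (SE 0.17, edgeR adjusted p = 0.00234), and 4.02% of 10675 genes passed, with Id1 the only one of the 3 members to do so. This call held in all 16 alternatives that were computed for it, with a log2 fold change of 1.34 to 1.84 and an adjusted p of at most 0.0382. With all deposited barcodes kept it was 1.43 (edgeR adjusted p = 0.000484). The doubled gate thresholds, which gave 1.34, also raised the Elane limit. Some Elane-high cells, on which the family was chosen, could thus enter the Mpo-high gate, so that value is a description. Of these alternatives, the 2 that left out cells passing more than 1 gate gave the same values. They held the same cells in every gate but Elane-high. Id2 had a log2 fold change of 0.99 in these cells (SE 0.37, edgeR adjusted p = 0.139), with 65 and 19 UMIs in controls and 58 and 43 in knockouts, and passed without control library 2 (1.30, edgeR adjusted p = 0.0179). Id3 was at 6.3 and 9.0 CPM in controls and at 4.1 and 9.2 CPM in knockouts, with a log2 fold change of -0.01 (SE 0.39, edgeR adjusted p = 0.989).

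An Id1 UMI was also found in a larger share of the Mpo-high cells of the knockouts. To compare libraries of different depth, each cell was thinned to 3000 UMIs, and shallower cells were left out, 140 and 3 of the Mpo-high cells in controls and 2 and 1 in knockouts. After thinning, an Id1 UMI was seen in 7.0% and 8.5% of Mpo-high control cells and in 16.4% and 22.7% of the knockout cells. The 95% exact intervals of the controls were 5.9 to 8.3% and 4.4 to 14.3%, and those of the knockouts 11.3 to 22.6% and 17.8 to 28.2%. The interval of knockout library 1 overlapped that of control library 2 and lay above that of control library 1. These intervals, like all intervals and floors here, cover counting error only. Without thinning the shares were 15.7% and 24.1% in controls and 61.6% and 65.9% in knockouts, at median depths of 7264, 16767, 22873 and 19794.5 UMIs per cell. Among cells deep enough to be thinned, 2.3% and 6.3% of control cells and 29.5% and 30.1% of knockout cells held more than 2 Id1 UMIs, which also follows depth. The 10% of cells with the most Id1 held 77.8% and 70.4% of the Id1 UMIs in controls and 49.9% and 40.8% in knockouts. No cell type of the sort is known to lack Id1. The Car1-high cells, in which its level was lowest of the 6 groups, served as the background. Their thinned shares were 0% and 0% in controls and 4.3% and 3.6% in knockouts, at median depths of 9379 to 24556 UMIs. The exact intervals of the 2 shares of 0 reached up to 3.0% and 15.4%. Those of the knockouts were 0.11 to 21.9% and 0.44 to 12.3%, from 23 and 56 cells. As this gate was picked for its low Id1, its low shares are no separate check.

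**Figure D3:**
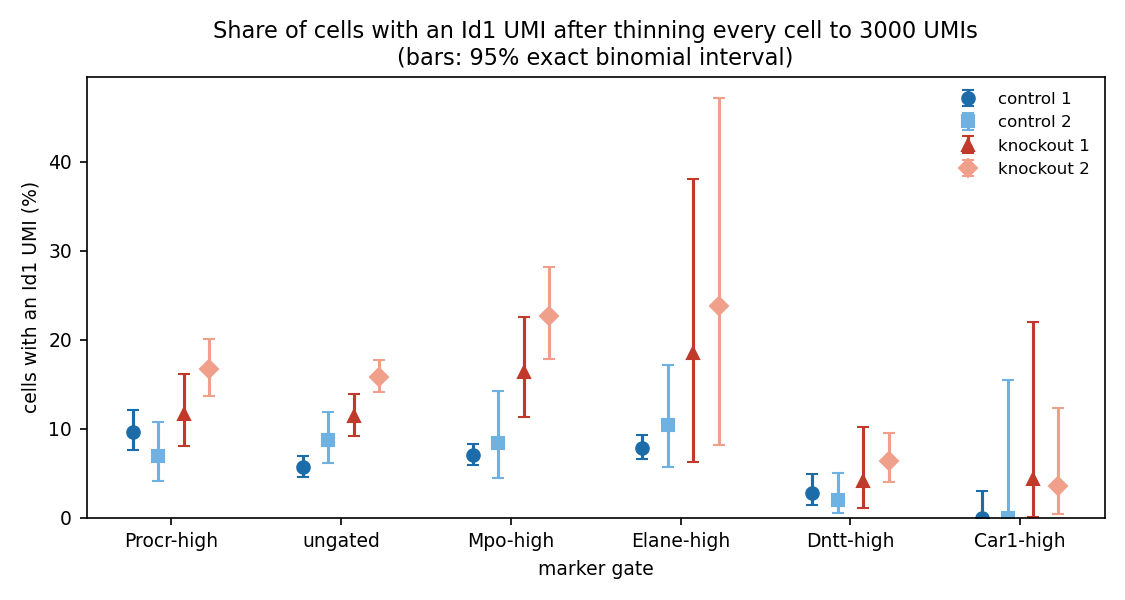
Share of cells with at least 1 Id1 UMI (vertical axis, percent) after thinning each cell to 3000 UMIs, by gate and library, with 95% exact binomial intervals. In Mpo-high cells the knockout libraries stand at 16.4% and 22.7% against 7.0% and 8.5%, and Dntt-high and Car1-high cells are low in all libraries.

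The other gates that were tested had lower estimates for Id1, and the Elane-high values are given further on. Dntt-high cells had 36 and 45 Id1 UMIs in controls and 53 and 161 in knockouts, with a log2 fold change of 1.09 (SE 0.24, edgeR adjusted p = 0.0677). Neither Id1 nor Id2 (-0.19, SE 0.42) nor Id3 (0.40, SE 0.30) passed there, where 1.17% of 10212 genes did. Of 15 alternatives, 6 passed and 9 did not. Among them, the doubled gate thresholds could let in Elane-high cells, on which the family was chosen. The adjusted p of Id1 was 0.196 with DESeq2, and in edgeR it was 0.137 with doubled gate thresholds, 0.148 without knockout library 1 and 0.533 without knockout library 2. In edgeR without the filter on low counts it was 0.00106, without control library 1 it was 0.00839 and without control library 2 it was 0.00015. Id2 passed as lower in knockouts without control library 1 (-0.78, edgeR adjusted p = 0.0157). In Procr-high cells the log2 fold change of Id1 was 0.50 (SE 0.23, edgeR adjusted p = 0.18), and 0 of the 3 members passed, while 9.39% of 11067 genes did. Knockout library 1, at 47.6 CPM, was close to the controls at 43.4 and 44.8 CPM, and knockout library 2 was at 76.3 CPM. Ungated cells had 26.8 and 38.1 CPM of Id1 in controls and 53.6 and 69.6 CPM in knockouts. Id1 passed narrowly there with a log2 fold change of 0.98 (SE 0.23, edgeR adjusted p = 0.0486), where 5.72% of 12403 genes did, and Id2 (0.14, SE 0.24) and Id3 (-0.46, SE 0.41) did not. Without control library 1 Id3 passed as lower in knockouts (-1.01, edgeR adjusted p = 0.00893), and without control library 2 Id2 passed as higher (0.51, edgeR adjusted p = 0.0484). The call of Id1 was lost with all barcodes kept (0.71, edgeR adjusted p = 0.0984), with at least 1000 genes per cell (0.0511), with another size factor (0.054), without knockout library 2 (0.75, 0.4) and without any shared barcode (1.07, 0.361). In Car1-high cells no Id gene had enough counts to be tested.

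The difference between the gates in the knockout effect was tested itself. The effect on Id1 was larger in Mpo-high than in ungated cells by a log2 value of 0.48 (SE 0.13), but the interaction did not pass (edgeR adjusted p = 0.101), with 0 of the 3 members and 0.736% of 11954 genes past the threshold. It passed with all barcodes kept (0.60, edgeR adjusted p = 0.0207), without control library 1 (0.84, 0.00451) and without knockout library 2 (0.56, 0.0245). For Id2 it was 0.72 (SE 0.26, edgeR adjusted p = 0.266) and for Id3 0.18 (SE 0.27, edgeR adjusted p = 0.869).

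The Elane-high cells are those in which the family was picked, and their values describe that choice. Id1 was at 29.9 and 38.4 CPM in the controls, from 594 and 147 UMIs in 1578 and 126 cells. It was at 95.9 and 124 CPM in the knockouts, from 72 and 56 UMIs in only 27 and 21 cells. The ratio of the group means was 3.22 (log2 1.69). With all barcodes kept the gate held 1691, 1084, 385 and 179 cells, and Id1 was at 29.9, 39.4, 83.5 and 93.3 CPM, a log2 ratio of 1.35. In the Mpo-high cells of the same knockout libraries the levels were 84.8 and 99.5 CPM. Id2 and Id3 had at most 3 UMIs in either knockout library, all in knockout library 1.

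The knockout cells of this gate lay near its lower limit. Elane itself was at 5336 and 5167 CPM within the gate in controls and at 1096 and 1647 CPM in knockouts. The gate was therefore divided by Elane level. Just inside the threshold, at 5 to 20 Elane UMIs per 10000, Id1 was at 36.8 and 50.7 CPM in 592 and 45 control cells and at 102 and 125 CPM in 25 and 17 knockout cells. Just outside it, in Mpo-high cells, the values were those given above, with 31.9 and 31.6 against 84.8 and 99.5 CPM. At 20 to 50 Elane UMIs Id1 was at 30.2 and 31.2 CPM in controls. The knockout libraries had 2 cells each in that band, with 3 and 4 Id1 UMIs (40.6 and 94.0 CPM, 95% exact Poisson intervals 8.4 to 119 and 25.6 to 241 CPM). At 50 or more, controls were at 24.1 and 33.7 CPM, knockout library 1 had no cell, and knockout library 2 had 2 cells with 6 Id1 UMIs. In both control libraries Id1 was lower at 50 or more than at 5 to 20 Elane UMIs, with exact Poisson intervals that were separate in control library 1 (20.9 to 27.8 against 32.3 to 41.7 CPM) and overlapped in control library 2 (25.6 to 43.6 against 38.7 to 65.3 CPM).

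**Figure D4:**
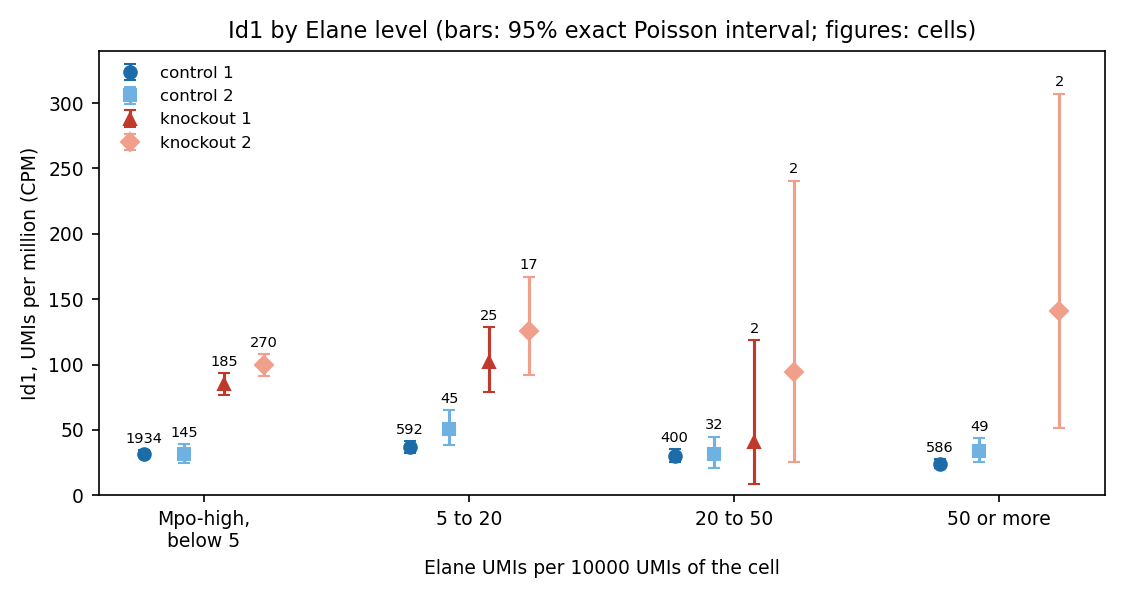
Id1 in CPM (vertical axis) by the Elane level of the cell (horizontal axis), from Mpo-high cells below the gate to the highest Elane band, for each library with 95% exact Poisson intervals for counting error. The numbers above the bars are cells. Knockout points lie at 84.8 to 125 CPM in the first 2 bands, and above 20 Elane UMIs they rest on 2 cells each.

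Several other gene groups moved with the genotype beside Id1, and their part in the Id1 values was not tested. Immediate early genes, which respond within minutes to stimulation and to handling of cells, were in part lower in the knockouts in every group tested. Outside the Elane-high gate 8 of 13 passed as lower, led by Egr1 (-2.49), Jun (-1.81), Fos (-1.80) and Atf3 (-2.14), and 0 as higher. There 2.48% of all genes passed in either direction. The median log2 fold change of the 13 was -1.53 against -0.01 over all genes. The summed level of the 13 there was 5296 and 5411 CPM in controls and 1733 and 1995 CPM in knockouts. In Mpo-high cells 10 of 13 passed as lower, against 4.02% of all genes in either direction. The summed level of the 13 was 3982 and 3674 CPM against 1204 and 1498 CPM. Id1 moved there in the direction opposite to these genes. In Procr-high cells, where Id1 did not pass, all 13 passed as lower, against 9.39% of all genes. In Elane-high cells the sums were 2641 and 2017 CPM against 1205 and 1434 CPM.

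Genes of late neutrophils marked a second difference. The 9 listed genes summed to 371 and 2243 CPM outside the Elane-high gate in controls and to 102 and 130 CPM in knockouts. Of the 9, 4 passed as lower (Cebpe, Ngp, Camp and Lcn2), with a list median of -3.46, where 2.48% of all genes passed. In ungated cells the sums were 1164 and 5787 CPM against 175 and 236 CPM. There 7 of 9 passed as lower, against 5.72% of all genes in either direction. In Mpo-high cells the sums were at most 41.9 CPM in any library, with 0 to 4 of the 9 genes at 0. There 2 of the 4 tested passed as lower, against 4.02% of all genes. Within the Elane-high gate the order was different, at 424 and 2166 CPM in controls and at 1072 and 6827 CPM in knockouts. Primary granule genes summed to 6099 and 5597 CPM in Mpo-high control cells and to 5119 and 4465 CPM in knockout cells. Of the 8 tested, 0 passed there. The list holds Mpo, which defined the gate, at 2409 and 1955 CPM in controls and 1865 and 1742 CPM in knockouts. It also holds Elane, which the Elane-high gate limited in these cells, so the gating partly fixed these values.

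Markers of cells outside the sort were also summed. Of 9 endothelial and stromal genes, the sum in Mpo-high cells was 12.5 and 15.6 CPM in controls and 8.7 and 9.2 CPM in knockouts, with 2 to 4 of them at 0 in each library. Most of it was Emcn, at 6.9 and 11.7 CPM in controls and at 5.6 and 5.5 CPM in knockouts, while the endothelial gene Cdh5 and the stromal gene Col1a1 were at 0 in all 4 libraries in these cells, where 3 UMIs would be 0.20 to 1.2 CPM. None of the genes tested from this list or from that of T and NK cells passed in any comparison of genotypes. Few were tested, in Mpo-high cells 2 of the 9 and 1 of the 6, where 4.02% of all genes passed. Outside the Elane-high gate 7 and 5 were tested, where 2.48% passed. The lack of calls therefore does not show that the genotypes were alike in these genes. The sum of the T and NK cell list was 190 to 333 CPM in Mpo-high cells, nearly all of it Nkg7, while the T cell gene Cd3e was at 0 in 3 libraries and at 0.21 CPM in knockout library 1.

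Most genes of the bHLH, BMP and TGF-beta and E protein target lists did not pass between the genotypes. Over all genes, 2.48% passed outside the gate, 4.02% in Mpo-high, 1.17% in Dntt-high, 9.39% in Procr-high and 5.72% in ungated cells. Outside the Elane-high gate 0 of the 8 E protein and bHLH genes passed, with log2 fold changes of 0.02 for Tcf3, -0.16 for Tcf4 and -0.03 for Tcf12. In Mpo-high cells 1 of 8 passed as higher, Hes1 (log2 fold change 3.04, SE 0.63, edgeR adjusted p = 0.0318). Hes1 stood at 0.26 and 1.17 CPM in controls and at 3.1 and 3.55 CPM in knockouts. In these control libraries 3 UMIs would be 0.20 and 1.17 CPM, so both control values rest on few UMIs. Tcf4 was at -0.34 there (edgeR adjusted p = 0.242). Of the BMP and TGF-beta list, Skil was lower in knockouts outside the gate (-1.67, edgeR adjusted p = 0.0188) and in Mpo-high cells (-1.22, 0.0107), at 35.9 and 34.7 CPM in controls against 13.8 and 15.4 CPM. It was also lower in Dntt-high (-1.85), Procr-high (-2.32) and ungated cells (-1.75), in each of which Smad7 was lower as well, at -0.93, -1.19 and -1.03. No gene of this list passed as higher in knockouts in any group tested. Among the genes that E proteins activate in lymphoid cells, 0 passed outside the gate, in Mpo-high, Procr-high or ungated cells. Outside the gate, where the sums hold the Cd79a-high cells, 8 of the 10 were higher in knockouts. The list median there was 0.87, against -0.01 over all genes. In Mpo-high, Procr-high and ungated cells it was -0.34, -0.41 and -0.61. In Dntt-high cells 1 of the 8 tested, Ebf1, passed as higher (2.69, edgeR adjusted p = 0.0373). Ebf1 is among the genes that defined the Cd79a-high gate, which took cells before the Dntt-high gate. The gating thus limited Ebf1 in Dntt-high cells. Cd79a-high cells made up 0.19% and 0.67% of control cells and 7.3% and 9.6% of knockout cells.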

How the data were processed

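Mouse LSK cells of 2 control and 2 knockout libraries were profiled with the 10x Genomics 3′ v3.1 kit. The authors deposited UMI counts per gene and barcode for each library, and the submitters' processing notes name Cell Ranger 3.1 and the build mm10. Barcodes were kept from 200 genes upwards if mitochondrial genes took no more than 10% of UMIs. A copied barcode was left out where the same sequence had a 3-fold higher total elsewhere. No doublet caller was run. Each cell was assigned to the first gate it passed, with marker UMIs per 10000, and counts were summed per library and gate where every library had 20 cells. The sums were compared with edgeR 4.0.16 (TMM, filter on low counts, quasi-likelihood test, Benjamini-Hochberg adjustment over all genes tested, threshold 0.05), without a block between genotypes and with the library as a block between gates. Each SE was derived from that test, as the size of the log2 fold change divided by the square root of the F statistic. edgeR and DESeq2 1.42.0 were run under R 4.3.3. Cells were handled in Python 3.11.15 with NumPy 2.4.6, SciPy 1.17.1, pandas 2.3.3 and matplotlib 3.10.9. CPM was computed from the sums, and a value of 0 was read against a floor of 3 counts. Intervals are exact at 95%. The edgeR fit was tried on simulated counts for the genotypes outside the Elane-high gate and for Dntt-high against Mpo-high cells. Their spread was set and not taken from the libraries, so this does not check the p-values. Gating, the interaction and DESeq2 were not covered. Named list genes were, per comparison, at most 4 past the threshold with the smallest p, all 3 E proteins, and the 3 genes most like each member. The members, gates and lists (E proteins, BMP and TGF-beta genes, E protein targets, immediate early, primary granule, late neutrophil, endothelial and stromal, and T and NK cell genes) were chosen with earlier results of these data known. Cdh5, Col1a1 and Cd3e, singled out for 0 values, and Emcn, Nkg7 and the late neutrophil names were added after their values were seen. The alternatives were other barcode, gene and gate limits, other size factors, no filter, DESeq2, each library left out and a replicate block.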

Additional observations from a re-analysis of the deposited data

How the results depend on the processing

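Of 478 values computed under an alternative, 402 were counted as unchanged. For a contrast this meant the same direction and the same side of the threshold, and for the fit over gates the side alone. Counts of genes had to stay within a set fold, and Elane-high values within the pooled SD of the libraries. The total also holds fits of Id1 with the Elane-high cells, which are not given as tests. Doubling the gate thresholds raised the Elane limit too, so Elane-high cells below the raised limit entered other groups. In the runs that left out cells of more than 1 gate, these cells were still counted in the sums outside the Elane-high gate. With Elane and Mpo as separate gates, nearly all Elane-high cells thus entered those sums (Id1 0.91, 473 genes passing). Id1 values from sums with such cells are likewise no tests. The cause of the values that changed was not tested. The count of genes that passed outside the Elane-high gate, 336, became 554 with all deposited barcodes kept, 140 without any barcode found in more than 1 library, 2178 without the filter on low counts and 923 with DESeq2. Without 1 library it ran from 43 (without knockout library 2) over 181 (without knockout library 1) and 1745 (without control library 2) to 3163 (without control library 1).

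With all barcodes kept, Id1 lost its call outside the gate (0.81) and in ungated cells (0.71), the interaction of Id1 passed (0.60), Id3 in Mpo-high cells turned to 0.13, Id1 between Elane-high and Mpo-high cells to -0.050, and the Id1 log2 ratio in Elane-high cells was 1.35. Without any shared barcode Id1 lost the same calls (1.10 and 1.07), Id2 in ungated cells passed (2.20), Id2 in Procr-high cells turned to -0.058, Id3 in ungated cells turned to 0.17, Id2 between Procr-high and ungated cells passed (-1.32) and Id3 lost that call (0.96). With doubled gate thresholds Id2 turned to 0.075 in Dntt-high and to -0.15 in Procr-high cells. In this setting the interactions of Id2 and Id3 turned to -0.48 and -1.61, and Id3 passed between Dntt-high and Mpo-high cells (1.18). Id1 between Procr-high and ungated cells was at 0.40. With cells of more than 1 gate left out, in both versions, of which the one that counts the Elane and Mpo gates as 1 was chosen after seeing the data, Id1 in Dntt-high cells passed (1.25) and so did Id3 between Dntt-high and Mpo-high cells (0.60). Without the filter on low counts Id2 in Mpo-high cells (0.98), Id1 in Dntt-high cells (1.14) and Id3 between Dntt-high and Mpo-high cells (0.59) passed. Id1 in ungated cells lost its call with at least 1000 genes per cell (0.98) and with DESeq2's size factors (0.98), Id1 between Elane-high and Mpo-high cells turned to -0.044 with library totals alone, and Id3 between Procr-high and ungated cells lost its call with DESeq2 (0.73). At 20 or more Elane UMIs per 10000 the Id1 log2 ratio was 1.41 and the Id3 difference 6.01 CPM.

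Without 1 library, knockout minus control of Id1 ran from 0.84 to 1.12 outside the gate, from 0.92 to 1.32 in Dntt-high and from 0.69 to 1.30 in ungated cells, and its interaction from 0.32 to 0.84. For Id2 it ran from -0.28 to 0.91 outside, from 0.34 to 1.30 in Mpo-high, from -0.78 to 0.85 in Dntt-high, from -0.035 to 0.31 in Procr-high and from -0.24 to 0.51 in ungated cells. For Id3 it ran from -0.49 to 0.81 outside, from -0.74 to 0.41 in Mpo-high, from -0.27 to 0.56 in Procr-high and from -1.02 to 0.21 in ungated cells, with the interaction from -0.025 to 0.60. Between gates, Id3 ran from 0.49 to 0.75 (Dntt-high against Mpo-high), from -1.66 to -1.44 (Elane-high against Mpo-high) and from 0.59 to 0.92 (Procr-high against ungated), and Id1 from -0.029 to 0.26 in the last of these. Where a genotype had 1 library, it was assumed to vary like the other.

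Same-numbered libraries did not deviate together (r = -0.12 over 10337 genes). With 2 libraries per genotype this cannot decide whether the numbers mark pairs. With the replicate block the count of genes was 1261, and Id1 was at 0.97 outside the gate and 1.57 in Mpo-high cells. With the crossed replicate block, control 1 with knockout 2, the count was 1633, Id1 passed in Dntt-high (1.11) and Procr-high cells (0.48), and Id3 in Mpo-high and Id2 in Dntt-high cells turned to 0.0077 and 0.0044. This pairing followed the complexity of the libraries, not the replicate numbers of the labels. It was thus chosen on these data, and its calls are no separate check.

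Leaving out all cells that pass more than 1 gate, with Elane and Mpo as separate gates, left too few Elane-high cells for a value. Leaving out all shared barcodes left 4 and 1 such cells in the knockouts, too few for an Id1 value. Id2 and Id3 had 0 UMIs in those cells, yet their differences were computed and are among the values counted as unchanged. Depth limits Id2 and Id3 most, with 0 to 3 UMIs in the Elane-high cells of a knockout library.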
